A study of Mus musculus with 161 samples.

Results

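The cells described here are the 0 h M0 macrophages of a single-cell RNA-seq experiment, that is, unstimulated mouse bone marrow-derived macrophages (BMDMs) taken on day 7 of culture, before any polarizing cytokine was added. They were chosen by library alone: all 5985 barcodes of the 0 h M0 matrix belong to them, out of 22881 barcodes (26.2%) in the 7 single-cell libraries of the series. The marrow came from C57BL/6J mice of 6 to 10 weeks and was grown in RPMI-1640 with horse serum (20%), antibiotics (penicillin and streptomycin) and MCSF, the macrophage growth factor, at 20 ng/mL, which every library shared. The other 6 libraries held M0 cells kept in that base medium for a further 6 or 24 h, M1 cells given 100 ng/mL lipopolysaccharide (LPS) with 25 ng/mL interferon-γ (IFN-γ) for 6 or 24 h, and M2 cells given 25 ng/mL interleukin-4 (IL-4) for 6 or 24 h. Each single-cell condition was 1 library from 1 culture, so differences between those libraries were not tested and the intervals given with them cover counting error only. Replicated counterparts of the same condition were available as 3 bulk RNA-seq libraries of 0 h M0 (set beside 3 libraries each of 24 h M0, 24 h M1 and 24 h M2) and 3 bulk ATAC-seq libraries of 0 h M0 (set beside 3 each of 24 h M1 and of 72 h M1→M0, cells primed as M1 and then returned to base medium). The in vitro culture holds whatever marrow cells persist beside the macrophages, and the sources name no sort before the single-cell capture.

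Macrophages grown from marrow with MCSF depend on the receptor Csf1r and on the transcription factor PU.1, and without further stimulus they behave as scavengers: they take up debris and lipids, digest them in lysosomes, store iron in ferritin, and express complement C1q and apolipoprotein E. LPS signals through Toll-like receptor 4 and, with IFN-γ, induces chemokines, interferon-stimulated genes and antimicrobial effectors, whereas IL-4 signals through STAT6. Many BMDMs still divide in MCSF, so S phase and mitotic genes are part of their normal repertoire. The 3 marker genes named for these cells were Sepp1 (now Selenop), a secreted selenium carrier, Gas6, a bridging ligand between phosphatidylserine on dying cells and the TAM receptors such as Mertk, and Stab1, a scavenger receptor for modified lipoproteins and apoptotic bodies.

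The promoters of the 3 marker genes are shown because a merged ATAC peak with reads in 0 h M0 lay at each. Pf4 encodes the platelet chemokine and was among the most abundant transcripts of these cells. Its promoter is shown because it shares with Sepp1 the letters of a PU.1 motif. Each sequence is a RefSeq window of 300 bases on mouse GRCm38.p6, from 250 bases upstream of the annotated start to 50 bases downstream, written 5′ to 3′ on the strand of the gene, and capitals mark GAGGAAGT or its reverse complement ACTTCCTC.
Sepp1 (the most upstream of its 3 annotated starts), chr15:3270517-3270816, plus strand: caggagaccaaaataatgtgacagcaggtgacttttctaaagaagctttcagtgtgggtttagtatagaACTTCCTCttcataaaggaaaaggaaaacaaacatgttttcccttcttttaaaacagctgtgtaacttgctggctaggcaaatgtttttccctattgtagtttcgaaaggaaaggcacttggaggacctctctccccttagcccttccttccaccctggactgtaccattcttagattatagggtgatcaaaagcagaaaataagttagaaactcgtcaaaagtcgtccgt
Gas6, chr8:13494486-13494785, minus strand: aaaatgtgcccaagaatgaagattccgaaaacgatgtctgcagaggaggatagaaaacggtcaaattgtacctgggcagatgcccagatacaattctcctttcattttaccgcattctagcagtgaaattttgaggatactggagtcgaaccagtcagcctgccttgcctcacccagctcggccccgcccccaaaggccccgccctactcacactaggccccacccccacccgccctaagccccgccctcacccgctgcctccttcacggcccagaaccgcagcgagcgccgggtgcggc
Stab1, chr14:31168592-31168891, minus strand: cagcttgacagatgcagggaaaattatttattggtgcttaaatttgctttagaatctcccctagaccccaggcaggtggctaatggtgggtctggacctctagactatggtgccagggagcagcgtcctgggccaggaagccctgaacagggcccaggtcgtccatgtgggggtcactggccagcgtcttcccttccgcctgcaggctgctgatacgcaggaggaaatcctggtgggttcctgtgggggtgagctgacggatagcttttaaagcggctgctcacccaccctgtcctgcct
Pf4, chr5:90772185-90772484, plus strand: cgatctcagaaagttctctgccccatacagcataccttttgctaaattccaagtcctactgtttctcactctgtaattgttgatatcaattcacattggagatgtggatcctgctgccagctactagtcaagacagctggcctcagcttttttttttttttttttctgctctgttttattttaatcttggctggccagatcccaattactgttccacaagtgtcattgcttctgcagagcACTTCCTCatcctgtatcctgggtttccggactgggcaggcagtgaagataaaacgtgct
The PU.1 letters, searched on both strands, occurred in 1052 of 32851 RefSeq promoter windows of the same length (3.2%). They were in the Sepp1 and Pf4 windows and not in those of Gas6 and Stab1. Pf4 was shown for this match, so the 4 windows cannot be set against that share. The Sepp1 window also held the core letters of an interferon-stimulated response element, searched on both strands, which 3.44% of the windows held, and the window at its most downstream start held TATAAA (13.6% of windows) in place of the PU.1 letters. A merged ATAC peak lay over each of the 4 windows. These are matches of letters in a window and show no binding.

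The 0 h M0 library was the largest by barcodes and the shallowest per barcode. It held 7570554 UMIs (molecules counted after removal of PCR copies) over 13238 of 27998 annotated genes, with a median of 1025 UMIs and 564 genes per barcode, against medians of 1751 to 2529 UMIs in the other 6 libraries. Totals ran between 440 and 14120 UMIs, and 400 barcodes lay under 500 UMIs, a depth at which the other libraries had none. Mitochondrial transcripts made up 1.95% of its UMIs, against 0.464 to 1.49% elsewhere, and 235 barcodes (3.93%) exceeded 5% mitochondrial UMIs, against 0 to 0.862% of barcodes elsewhere. Of its barcode sequences, 130 also occurred in another library. No doublet caller was applied and no barcode was removed. Depth and mitochondrial content therefore moved with the library in every single-cell comparison that follows, and their part in those differences was not tested.

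The transcriptome of the 0 h M0 cells was led by iron storage, lysosomal and cytoskeletal genes. Apart from mitochondrial and ribosomal protein genes, the 20 most abundant genes took 18.3% of all UMIs. Ferritin heavy chain Fth1 stood at 36667 CPM (UMIs of the gene scaled to the total of the library) and ferritin light chain Ftl1 at 35779 CPM, followed by thymosin Tmsb4x at 20994 CPM and lysozyme Lyz2 at 17513 CPM. Apoe, the lipid carrier, reached 8762 CPM and Pf4 7693 CPM. Cathepsins Ctsd (4402 CPM) and Ctsb (4244 CPM) and the immunoreceptor adaptors Tyrobp (4521 CPM) and Fcer1g (3787 CPM) were also among the 20. These genes were present in nearly every barcode: Ftl1 in all 5985, Fth1 in 5984, Lyz2 in 5953 (99.47%) and Pf4 in 5676 (94.84%). They nevertheless differed in how evenly they were expressed. The coefficient of variation (CV) between barcodes beyond counting noise was 0.217 for Fau, which encodes a ubiquitin-like ribosomal fusion protein, 0.257 for Ftl1 and 0.335 for Fth1, but 0.513 for Lyz2, 0.73 for the lectin Lgals3, 0.733 for Apoe and 0.791 for Pf4. The secreted or lipid-related products Apoe, Pf4 and Lgals3 thus had the widest spread of the 20.

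Sepp1, Gas6 and Stab1 were detected in the 0 h M0 cells at moderate levels, and all 3 were highest not in this library but in the 24 h M0 library. Sepp1 stood at 624 CPM in 0 h M0, against 263 CPM in 6 h M0 and 2569 CPM in 24 h M0, 253 and 113 CPM in 6 h and 24 h M1, and 203 and 471 CPM in 6 h and 24 h M2. Gas6 stood at 166 CPM in 0 h M0, against 75.7 CPM in 6 h M0, 288 CPM in 24 h M0, 19.5 and 9.98 CPM in 6 h and 24 h M1, and 52.1 and 43.0 CPM in 6 h and 24 h M2. Stab1 stood at 333 CPM in 0 h M0, against 231 CPM in 6 h M0, 477 CPM in 24 h M0, 72.0 and 71.5 CPM in 6 h and 24 h M1, and 141 and 66.3 CPM in 6 h and 24 h M2. For each gene the order was therefore 24 h M0, then 0 h M0, and then the 6 h M0 library for Gas6 and Stab1 or the 24 h M2 library for Sepp1. On the log2 scale, 0 h M0 over 24 h M0 was -2.04 for Sepp1 (95% counting interval -2.09 to -1.99), -0.79 for Gas6 (-0.90 to -0.69) and -0.52 for Stab1 (-0.60 to -0.44), while 0 h M0 over 24 h M1 was 2.46 for Sepp1 (2.35 to 2.57), 4.06 for Gas6 (3.71 to 4.42) and 2.22 for Stab1 (2.08 to 2.36). None of the intervals between 0 h M0 and another library included 0. All 3 genes thus lay higher in 0 h M0 than in 6 h M0 and in every M1 and M2 library, and lower than in 24 h M0.

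**Figure D1:**
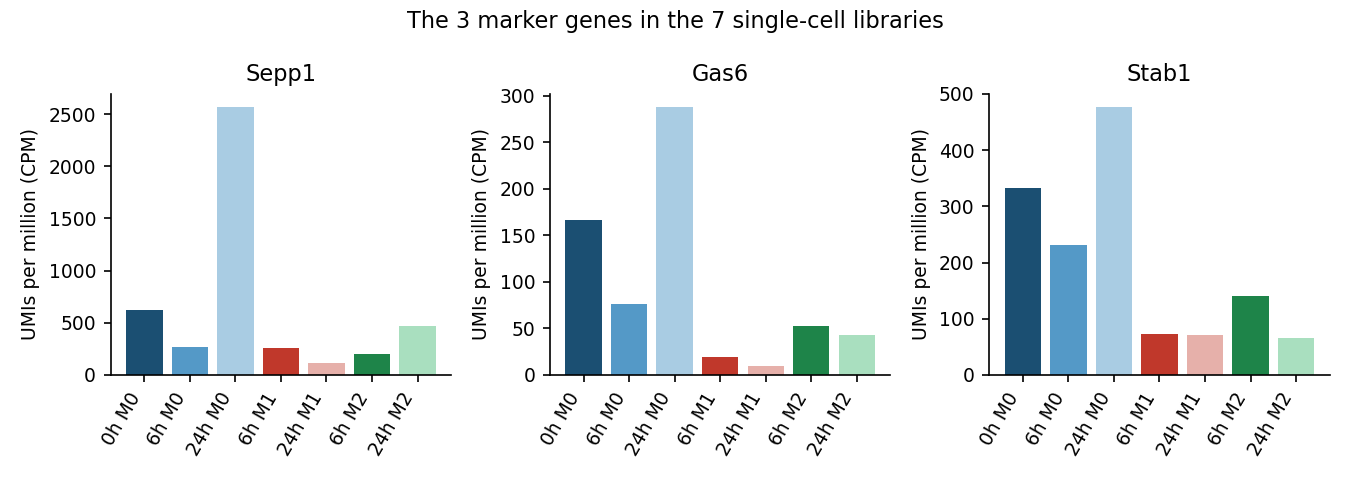
Level of Sepp1, Gas6 and Stab1 in CPM (vertical axes, from 0) in the 7 single-cell libraries (horizontal axis), 1 bar per library and no error bars, since each condition had 1 library. The 24 h M0 library was highest for all 3 genes (2569, 288 and 477 CPM) and 0 h M0 came next (624, 166 and 333 CPM).

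Within the 0 h M0 library the 3 genes were unevenly distributed. Of 5985 barcodes, 3446 had no Sepp1 UMI, 1472 had 1, 929 had 2 to 4 and 138 had 5 or more, up to 30 in 1 barcode. Gas6 was seen in 1017 barcodes (17%) and Stab1 in 1792 (29.9%). To set shares beside other libraries, every barcode was thinned to 500 UMIs, which left 5585 barcodes of 0 h M0 and dropped 400. At that depth 24.6% of 0 h M0 barcodes had a Sepp1 UMI (exact binomial interval 23.5 to 25.8%), against 10.1% in 6 h M0, 63% in 24 h M0 and 4.68 to 17.6% in the M1 and M2 libraries. Gas6 was seen in 8.52% (7.8 to 9.29%) of thinned 0 h M0 barcodes, against 0.422 to 13.5% elsewhere, and Stab1 in 15.7%, against 3.55 to 22.3%. No class of barcodes known to lack these genes was at hand, so the lowest library serves as the nearest measure of background. With the 3 genes summed, 13.9% of thinned 0 h M0 barcodes had 2 or more UMIs (13 to 14.9%), against 3.97% in 6 h M0, 44.8% in 24 h M0 and 0.387 to 5.68% in the M1 and M2 libraries. Beyond counting noise the variance of Sepp1 relative to its squared mean was 1.26, that of Gas6 0.949 and that of Stab1 0.718, each above the value of any of the 20 most abundant genes.

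The genes that varied most closely with Sepp1 from barcode to barcode mostly differed from those of Stab1 and Gas6. Stab1 and Gas6 shared several, among them Igfbp4 and Sirpa. The measure is a correlation corrected for counting noise over 5985 barcodes and 214 abundant, variable genes. The barcodes share 1 library and their totals enter the measure, so the values are a description only. Sepp1 varied with Lgmn, a lysosomal endopeptidase (0.68), Adgre1, which encodes F4/80 (0.60), the membrane protein gene Itm2b (0.59) and the Fc receptor Fcgr3 (0.54), and least with Ran (-0.41) and Nhp2 (-0.40), genes of nuclear transport and ribosome biogenesis. Stab1 varied with Igfbp4, a binding protein of insulin-like growth factors (0.64), and Pf4 (0.43), and Gas6 with Stab1 (0.51), the phagocytosis checkpoint receptor Sirpa (0.44) and Igfbp4 (0.43). In the 6 h M0 and 24 h M0 libraries the same pairs stood at 0.61 and 0.65 for Sepp1 with Lgmn, 0.61 and 0.72 for Sepp1 with Adgre1, 0.59 and 0.56 for Stab1 with Igfbp4, and 0.39 and 0.54 for Gas6 with Stab1.

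Almost every barcode of the 0 h M0 library carried transcripts of the macrophage core list, mostly of Lyz2. No UMI of the fibroblast list or the T and NK cell list was found. At least 2 UMIs of the macrophage core list (15 measured genes, among them Csf1r, Adgre1, Cd68, the C1q chains and Lyz2) were found in 98.7% of barcodes thinned to 500 UMIs, against 92.6 to 99.4% in the other libraries. Lyz2 alone was in 98.6% of the thinned 0 h M0 barcodes. It gave 132582 of the 181008 UMIs of the list in the whole library, so the share of the list rests on this gene. Less abundant members were seen less often: C1qb in 42%, Cd68 in 28.3%, Csf1r in 20.5%, Adgre1 in 13.3%, C1qa in 11.7%, the mannose receptor Mrc1 in 8.67% and the efferocytosis receptor Mertk in 0.77%. The scavenger receptor Cd163 had 17 UMIs in the whole library. The fibroblast list and the T and NK cell list had 0 UMIs in 5985 barcodes, which allows a share of up to 0.0501% of barcodes with a UMI. The erythroid list had 7 UMIs, the mast cell and basophil list 2, the eosinophil list 24 and the endothelial list 101, while the B cell list was limited to 60 UMIs of Cd79b. The monocyte list had 438 UMIs and the list of neutrophils and their precursors 485, of which 301 were of the collagenase Mmp8 and 133 of the calprotectin gene S100a8. Other lists were not near 0, through single genes. Of the 58543 UMIs of the megakaryocyte list 58244 were of the platelet factor Pf4, and the list reached 2 UMIs in 70.6% of thinned barcodes. Of the 3741 UMIs of the dendritic cell list 3687 were of Bst2, and of the 821 of the progenitor list 420 were of Cdk6 and 367 of Sox4.

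Functional groups placed the 0 h M0 cells far from the M1 libraries and near the other M0 libraries. The summed level of M1 effector genes was 36.3 CPM in 0 h M0, against 49.1 and 22.7 CPM in 6 h and 24 h M0 and 14538 and 3980 CPM in 6 h and 24 h M1. Interferon-stimulated genes summed to 765 CPM in 0 h M0, against 580 and 648 CPM in 6 h and 24 h M0. In 6 h and 24 h M1 they summed to 24077 and 34369 CPM. Bst2 gave 487 of the 765 CPM in 0 h M0. IL-4 response genes summed to 302 CPM in 0 h M0, against 176 and 352 CPM in 6 h and 24 h M0 and 5074 and 19933 CPM in 6 h and 24 h M2. Individual polarization genes were nearly silent. Nos2, the inducible nitric oxide synthase of M1 cells, had 1 UMI among 7570554, Il6 1, Il1b 3, Cxcl10 8, and Il12b and Cxcl9 none. Arg1, the arginase of M2 cells, had 38 UMIs and Retnla, another IL-4 target, had 1. By contrast, lysosomal genes summed to 24284 CPM, lipid-associated genes to 25677 CPM and scavenging genes to 7219 CPM in 0 h M0, against 22730, 22442 and 5303 CPM in 6 h M0 and 27810, 27680 and 11438 CPM in 24 h M0. Among them, the foam cell gene Gpnmb stood at 2684 CPM in 0 h M0, lipoprotein lipase Lpl at 1814 CPM, osteopontin Spp1 at 1681 CPM, the lipid-sensing receptor Trem2 at 1514 CPM and the fatty acid scavenger Cd36 at 969 CPM.

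Some inflammatory transcripts were nevertheless present at 0 h. At 500 UMIs, 2 or more UMIs of the chemokine and cytokine list were in 33% of barcodes. The chemokine and cytokine list summed to 2967 CPM in 0 h M0, against 3666 and 2698 CPM in 6 h and 24 h M0 and 42446 and 50040 CPM in 6 h and 24 h M1. Most of it came from Ccl6 (1176 CPM) and Ccl9 (1127 CPM), chemokines that resting myeloid cells express. Ccl2, which recruits monocytes, had 2215 UMIs in 778 barcodes with up to 43 in 1 barcode, and Ccl4 had 982 UMIs in 511 barcodes with up to 23. Tnf had 156 UMIs (20.6 CPM), against 888 CPM in 6 h M1. Isg15, an interferon-stimulated ubiquitin-like gene, stood at 51.0 CPM in 0 h M0, against 4505 and 6457 CPM in 6 h and 24 h M1. Ccl5 stood at 2.38 CPM in 0 h M0, against 17099 and 29506 CPM in 6 h and 24 h M1.

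The nearest library to 0 h M0 was 6 h M0. A gene was called here when summed levels lay at least 2-fold apart with 50 or more UMIs in 1 of the 2 libraries. Between 0 h M0 and 6 h M0, 208 of 7941 genes (2.62%) were called, 113 of them higher in 0 h M0 (1.42%) and 95 lower (1.2%). Scavenging and efferocytosis genes contributed 4 of 21 higher and none lower: Mrc1 at 165 CPM in 0 h M0 and 56.3 CPM in 6 h M0, Mertk at 12.4 and 4.15 CPM in these, and Gas6 and Sepp1 with the values above. The median over the 21 was 0.39 on the log2 scale, against -0.02 over all genes. Immediate early genes gave 3 of 15 higher, namely Egr1 (17.3 CPM in 0 h M0, 5.15 CPM in 6 h M0), Zfp36 (72.4 and 32.9 CPM) and Btg2 (13.6 and 4.65 CPM). Cell cycle genes lay lower: 3 of 41 S phase genes and 6 of 50 G2 and M phase genes were called lower in 0 h M0 and none higher, with medians of -0.63 and -0.67 over the lists. Ube2c, an ubiquitin-conjugating enzyme of the anaphase-promoting complex pathway, stood at 103 CPM in 0 h M0 and 236 CPM in 6 h M0, and cyclin Ccnb1 at 9.64 and 24.6 CPM. Ccl2 was the 1 chemokine called, at 293 CPM in 0 h M0 and 627 CPM in 6 h M0.

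The genes farthest apart between 0 h M0 and 6 h M0 were mostly weakly expressed. St6gal1, a sialyltransferase, stood at 50.3 CPM in 0 h M0 and 9.8 CPM in 6 h M0 (log2 2.36, interval 1.96 to 2.78), the sulfate transporter Slc26a11 at 17.0 and 2.82 CPM (2.59, 1.86 to 3.42) and the endothelin receptor Ednrb at 8.85 and 1.49 CPM (2.57). In the other direction Gpr84, a receptor for medium-chain fatty acids, stood at 4.89 CPM in 0 h M0 and 20.8 CPM in 6 h M0 (-2.09, -2.66 to -1.55), the phosphodiesterase Pde4d at 4.36 and 17.6 CPM (-2.01), the fatty acid-binding protein Fabp7 at 15.9 and 54.3 CPM (-1.78) and the proteoglycan Sdc1 at 16.9 and 53.8 CPM (-1.67). Nrgn had the largest ratio of all, with 126 UMIs in 0 h M0 and 2 in 6 h M0, but 115 of the 126 lay in 1 barcode, which is described further on.

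Against 24 h M0, 627 of 7950 genes (7.89%) were called, 376 of them higher in 0 h M0 (4.73%) and 251 lower (3.16%). DNA replication genes stood out in counts: 13 of 41 S phase genes were higher in 0 h M0 and none lower, with a median of 0.77, against 0.07 over all genes. They included 5 subunits of the MCM helicase, among them Mcm6 at 155 CPM in 0 h M0 and 50.5 CPM in 24 h M0, Mcm3 at 87.4 and 35.6 CPM and Mcm5 at 67.9 and 21.3 CPM. The replication clamp gene Pcna stood at 322 CPM in 0 h M0 and 117 CPM in 24 h M0, and cyclin Ccne2 at 21.8 and 4.02 CPM. Mitotic genes pointed the other way: 9 of 50 G2 and M phase genes were lower in 0 h M0 and none higher, with Cenpa at 81.5 CPM in 0 h M0 and 261 CPM in 24 h M0, Ccnb2 at 31.2 and 134 CPM and Ube2c at 103 and 266 CPM. Replication and mitosis genes thus differed in direction between these libraries, while against 6 h M0 both groups lay lower in 0 h M0.

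Inducible and scavenging genes also differed between 0 h M0 and 24 h M0. Immediate early genes were higher in 5 of 15 cases and lower in none, with Fos at 157 CPM in 0 h M0 and 45.9 CPM in 24 h M0, Ier2 at 64.1 and 26.4 CPM and Myc at 13.5 and 2.79 CPM. Of 9 chemokine and cytokine genes 4 were higher, including Ccl2 at 293 CPM in 0 h M0 and 76.0 CPM in 24 h M0, Ccl7 at 110 and 18.9 CPM and Tnf at 20.6 and 6.99 CPM. The transcriptional inhibitors Id1 and Id3 stood at 40 and 68.4 CPM in 0 h M0, against 3.14 and 8.38 CPM in 24 h M0 (log2 3.67, 2.99 to 4.44, for Id1 and 3.03, 2.60 to 3.49, for Id3), and at 108 and 130 CPM in 6 h M0. Of 21 scavenging genes 4 were called higher and 1 lower, with a median of -0.40 on the log2 scale, against 0.07 over all genes. Cd36 (969 CPM in 0 h M0, 457 CPM in 24 h M0), Msr1 (76.2 and 36.5 CPM), Marco (18.2 and 3.32 CPM) and the integrin Itgav (73.4 and 29.7 CPM) were higher, and Sepp1 lower. Of 13 phagocyte receptor genes 3 were lower in 0 h M0, all of them Fc receptors, with Fcgr3 at 340 CPM in 0 h M0 and 862 CPM in 24 h M0, Fcgr4 at 13.6 and 50.1 CPM and Fcgr2b at 10.3 and 56.2 CPM (-2.45, -2.82 to -2.09). In lipid and iron handling, Lpl was higher at 1814 CPM in 0 h M0 and 759 CPM in 24 h M0 and the transferrin receptor Tfrc at 50.2 and 19.6 CPM, while the cholesterol exporter Abca1 was lower at 11.4 and 30.2 CPM and the iron exporter Slc40a1 at 17.2 and 52.9 CPM. Slc40a1 and Abca1 were higher in 0 h M0 than in 6 h M0, where they stood at 4.82 and 4.48 CPM.

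Against the polarized libraries the counts of called genes were 3861 of 8340 (46.3%) for 6 h M1, 3319 of 8242 (40.3%) for 24 h M1, 1104 of 8331 (13.3%) for 6 h M2 and 878 of 8281 (10.6%) for 24 h M2. More genes were higher than lower in 0 h M0 in the M1 comparisons, 2756 higher (33%) and 1105 lower (13.2%) for 6 h and 2350 higher (28.5%) and 969 lower (11.8%) for 24 h, with medians over all genes of 0.53 and 0.40 on the log2 scale, to which a level in those comparisons is relative. For M2 the calls were nearly balanced, 558 higher (6.7%) and 546 lower (6.55%) at 6 h and 403 higher (4.87%) and 475 lower (5.74%) at 24 h, and the medians were -0.04 and 0.01.

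No gene set 0 h M0 apart from all 6 other libraries by 2-fold on the high side. Of 5202 genes that could be compared with every library, 0 were at least 2-fold higher than in each and 1 was lower by the same rule, the histone demethylase gene Kdm6b, at 0.264 CPM, against 0.996 to 24.2 CPM elsewhere, although its 2 UMIs in 0 h M0 and 6 UMIs in 6 h M0 are too few to size the difference. The nearest on the high side was Ier2, an immediate early gene, at 64.1 CPM in 0 h M0, against 20.1 to 37.0 CPM elsewhere, with 19 of its 485 UMIs in 1 barcode. It was followed by Dusp6, a phosphatase that ERK signaling induces, at 42.1 CPM, against 1.71 to 28.1 CPM, the kinase gene Uhmk1 at 52.0 CPM, against 20.5 to 35.2 CPM, and the transcription factor Sox4 at 48.5 CPM, against 0.228 to 33.7 CPM. Mbnl1, a splicing regulator, was more abundant, at 199 CPM in 0 h M0, against 43.0 to 144 CPM. On the low side Cd274, which encodes PD-L1, stood at 3.3 CPM in 0 h M0, against 5.81 to 633 CPM.

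Expression varied between 0 h M0 barcodes beyond counting noise, for a number of genes that depends on the UMIs required per gene. The measure, alpha, is the extra-Poisson variance divided by the squared mean, computed for genes with 200 or more UMIs, and an alpha of 1 means a CV of 1 beyond counting. In 0 h M0, 1338 of 4000 genes (33.5%) had an alpha of 1 or more, against 12.2 to 19.6% of genes in the other libraries, and the median was 0.711. This count fell steeply where more UMIs per gene were required, as given further on. At equal depth, a comparison added after seeing the data, the share lay within the range of the other libraries and the median above it: with every barcode thinned to 500 UMIs and 1059 genes measured in every library, 64 genes (6.04%) passed in 0 h M0, against 5 to 9.54% elsewhere, with a median alpha of 0.294, against 0.146 to 0.25. Genes with a low alpha included the lysosomal genes Grn (0.0972) and Lamp1 (0.124) and the receptor Trem2 (0.176). Summed over a list, the CV was 0.234 for phagocyte receptors, 0.266 for iron and heme genes and 0.331 for lysosomal genes, but 0.758 for interferon-stimulated genes, 0.845 for S phase, 0.913 for chemokines, 1.39 for G2 and M phases and 8.21 for MHC class II.

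A single barcode set the largest values of this measure for several genes. It had 14120 UMIs and 3980 genes, against 8324 UMIs in the next, and 0.106% mitochondrial UMIs. It held all 20 UMIs of Gata1, all 14 of Gfi1b and 32 of 34 of Nfe2, transcription factors of the megakaryocyte and erythroid lineages, 39 of 40 of the platelet lipoxygenase gene Alox12, 25 of 26 of Gp5 and 27 of 30 of Gp1bb, which encode platelet adhesion receptor chains, 29 UMIs of the integrin gene Itga2b and 115 of 126 of Nrgn. Without that barcode, an alternative added after seeing the data, alpha fell to 2.63 for Tsc22d1, against 518 with it, to 3.11 for Bbc3 (186), to 2.2 for Ubash3b (96.3), to 7.55 for Ddit3 (93.3), to 0.52 for Parvb (67.1) and to 1.33 for Bin2 (58.9). Other genes kept their spread: alpha without and with the barcode was 159 and 157 for H2-Eb1, 132 and 130 for H2-Aa, 257 and 238 for the platelet chemokine gene Ppbp, and 18.7 and 18.5 for Ccl7. Ppbp had 217 UMIs in 91 barcodes, up to 44 in 1 barcode. After these came Gdf3, a growth factor of the TGF-β family (17.7), the collagenase Mmp8 (15), the histone gene Hist1h2bc (13.8), the cell cycle regulator Rgcc (13.2), the elastase Mmp12 (12.5), Ccl2 (12.1) and Ccl4 (11.6), all without the largest barcode. Alpha was also high for several of them in the other unstimulated libraries: in 0 h, 6 h and 24 h M0 it was 130, 112 and 136 for H2-Aa, 12.0, 4.97 and 55.4 for Ccl2, 12.4, 9.05 and 19.0 for Mmp12, and 17.5, 12.8 and 14 for Gdf3.

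**Figure D2:**
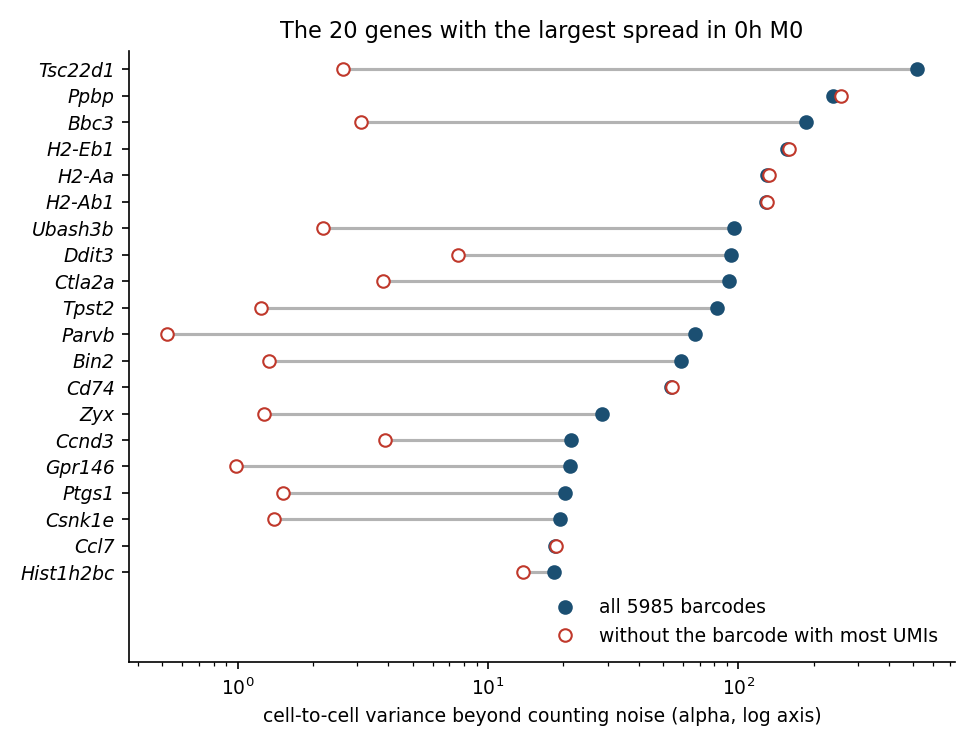
Cell-to-cell variance beyond counting noise (alpha, log axis) of the 20 genes with the largest values in 0 h M0 (rows), over all 5985 barcodes (filled points) and without the barcode with most UMIs (open points), joined by a line for each gene. The values of 13 genes such as Tsc22d1 dropped several-fold, while those of H2-Eb1, H2-Aa, H2-Ab1, Cd74, Ppbp and Ccl7 stayed in place.

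Clustering of the 0 h M0 barcodes alone gave 5 clusters, which describe this 1 library and were not tested against each other. Cluster 1 held 3444 barcodes (57.5%, exact interval 56.3 to 58.8%), cluster 2 held 1259 (21%), cluster 3 held 916 (15.3%), cluster 4 held 337 (5.63%) and cluster 5 held 29 (0.485%, 0.325 to 0.695%). Median UMIs per barcode were 959, 1150, 1050.5, 1276 and 1358 in clusters 1 to 5, and mitochondrial transcripts made up 2.08, 1.92, 1.61, 1.91 and 0.999% of their UMIs. All 5 carried macrophage core genes, at 23267, 16656, 38658, 21998 and 16768 CPM. Cluster 1, the largest, had no gene group of its own: it was led by low-level genes such as Rgcc, Nptx1, Dusp5 and Tnf.

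Cluster 2 was led by mitotic genes: Birc5 (survivin) stood at 705 CPM inside it and 24.8 CPM outside, topoisomerase Top2a at 455 and 20 CPM and Ube2c at 392 and 11.8 CPM. G2 and M phase genes summed to 6743 CPM in it, against 611 to 942 CPM in the other clusters, and S phase genes to 3792 CPM, against 774 to 1754 CPM. The 3 marker genes summed to 689 CPM there, below the 981 CPM of cluster 1. Cluster 3 was led by C-type lectin genes of the Clec4 family and by Ms4a6b, with Sepp1 at 1731 CPM inside and 425 CPM outside, C1qb at 2937 and 1136 CPM, C1qc at 2092 and 780 CPM and C1qa at 714 and 199 CPM. The 3 marker genes summed to 2499 CPM in it and the scavenging list to 11836 CPM, the highest of the 5. These barcodes thus held the end of the range richest in complement and scavenger transcripts.

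Cluster 4 was led by Mmp12 at 2208 CPM inside and 107 CPM outside, the vacuolar proton pump subunit Atp6v0d2 at 365 and 26 CPM, the fatty acid-binding proteins Fabp5 at 885 and 180 CPM and Fabp4 at 250 and 38.9 CPM, the bridging protein Mfge8 at 147 and 29.3 CPM and the interleukin-1 receptor antagonist Il1rn at 115 and 14 CPM. Lysosomal genes summed to 37163 CPM in it, lipid-associated genes to 40457 CPM and the osteoclast list to 502 CPM, each the highest of the 5 clusters. Cluster 5, with 29 barcodes, was led by MHC class II genes: Cd74 stood at 28921 CPM inside and 165 CPM outside, H2-Aa at 12978 and 16.1 CPM, H2-Ab1 at 12936 and 20.1 CPM and H2-Eb1 at 7114 and 8.11 CPM. It held 613 of the 734 H2-Aa UMIs of the library, with H2-Aa in all 29 barcodes. Of the dendritic cell markers, 29 of 38 UMIs of Cd209a and all 4 of Flt3 lay in it, while Ccr7 and Zbtb46 had none there. The monocyte list summed to 1249 CPM in it, against 7.94 to 95.4 CPM in the other clusters, mostly through Ccr2 and Plac8 (16 UMIs each), Ms4a4c (14) and Ly6a (12), while Ly6c2 and F13a1 had none there. Lyz2 was found in 26 of its 29 barcodes (89.7%). With few defining markers it was left unnamed.

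**Figure D3:**
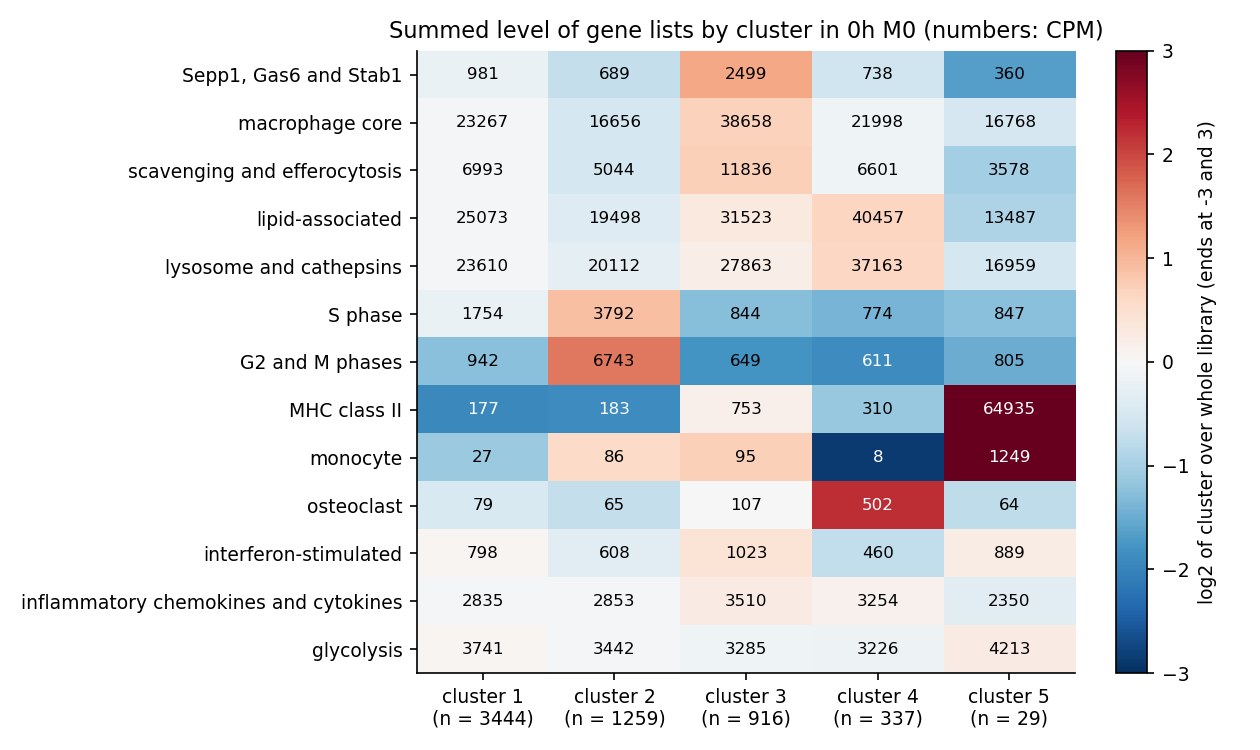
Summed level of gene lists (rows) in the 5 clusters of the 0 h M0 barcodes (columns, with the number of barcodes), as CPM in each cell and in color as log2 of the cluster over the whole library, the scale ending at -3 and 3. G2 and M phase genes were highest in cluster 2 (6743 CPM), the 3 marker genes in cluster 3 (2499 CPM), lysosomal genes in cluster 4 (37163 CPM) and MHC class II genes in cluster 5 (64935 CPM).

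The borders between clusters were not equally firm. Over 4 other settings the adjusted Rand index (agreement of 2 partitions, at most 1) with this partition was 0.339 to 0.58. The mitotic cluster 2 had a best overlap (shared over combined barcodes) of 0.745 to 0.94, and cluster 5 of 0.492 to 0.966. Cluster 4 had 0.621 to 0.742, cluster 1 had 0.405 to 0.765 and cluster 3 had 0.199 to 0.682. The complement-rich cluster 3 was therefore the least stable.

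Whether genes of a group varied together was measured by their shared variance, the mean covariance between different genes of a group divided by the product of their means, which counting noise does not enter. It was added after seeing the data and has no test. In 0 h M0 it was 68.5 for MHC class II (3.01 to 75.2 in the other libraries), 1.9 for G2 and M phases (0.569 to 2.56) and 0.695 for S phase (0.0708 to 2.1). It was 0.677 for interferon-stimulated genes (0.0407 to 0.75), 0.474 for chemokines (0.0603 to 0.526), 0.357 for the 3 marker genes (0.17 to 1.21), 0.105 for lipid-associated genes and 0.0959 for lysosomal genes. Between the interferon-stimulated and the chemokine list it was 0.0323. The leading genes of cluster 4 reached 2.48 in 0 h M0, against 0.255 to 2.03 elsewhere, and those of cluster 3 reached 0.696, against 0.134 to 0.494, but these genes were chosen in this library and the excess is no finding. They covaried in each of the other 6 libraries, which the clustering did not use. The shared variance of immediate early genes was 0.39 with and 0.106 without the largest barcode, against 0.0704 to 0.183 in the other libraries. The leading genes of cluster 1 and cluster 3 covaried negatively in 0 h M0 (-0.252), a sign that their choice in this library favors. They also did so in each of the other 6 libraries (-0.261 to -0.0598). Other pairs with cluster 1 changed sign. With cluster 2 the value was -0.427 in 0 h M0 and 0.195 in 24 h M0, and with cluster 4 it was -0.195 in 0 h M0 and 0.145 in 6 h M1.

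**Figure D4:**
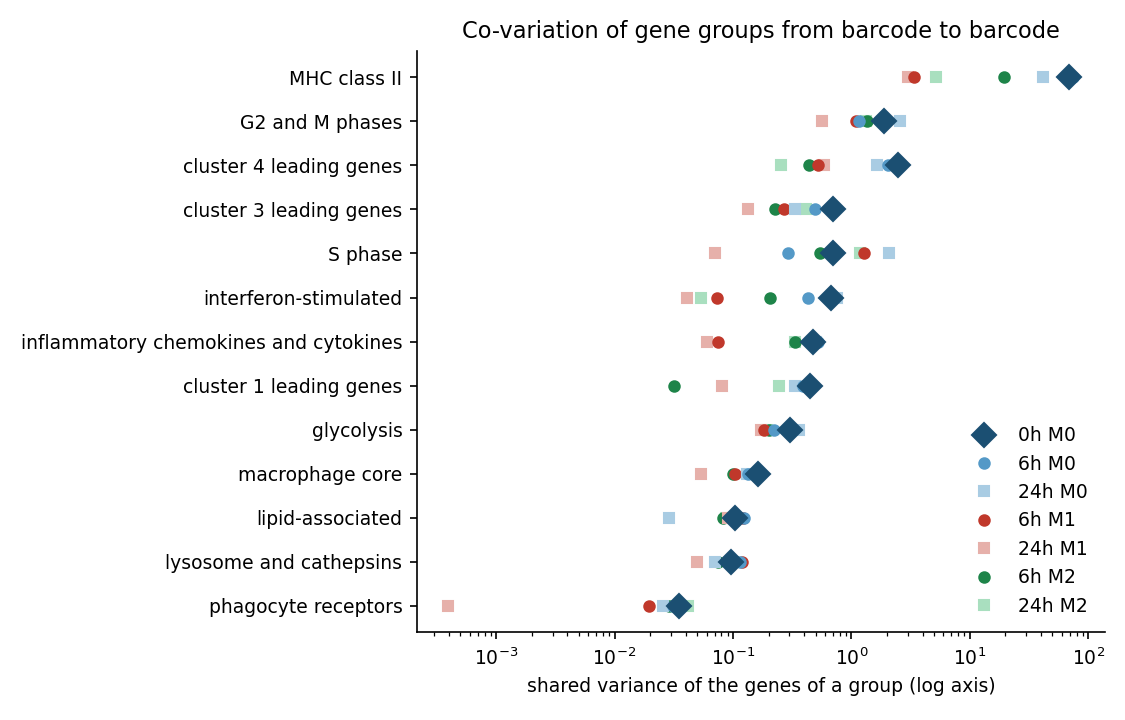
Shared variance of gene groups (log axis, no unit) in the 7 single-cell libraries, with 0 h M0 as large diamonds. In 0 h M0, MHC class II stood at 68.5 and lysosomal genes at 0.0959, and 1 value below 0 (the leading genes of cluster 1 in 6 h M1) is not drawn.

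Transcripts of division genes were found in many 0 h M0 barcodes, in a share that depends on depth. Among barcodes thinned to 500 UMIs, 23.4% had 2 or more UMIs of G2 and M phase genes in 0 h M0, against 37.6 and 24.8% in 6 h and 24 h M0, 4.5 and 1.37% in 6 h and 24 h M1, and 31.3 and 33.3% in 6 h and 24 h M2. At 1000 UMIs it was 36.9% in 0 h M0, against 11.9 and 4.8% in 6 h and 24 h M1. Without thinning it was 39.5% in 0 h M0, against 37.4 and 21.7% in 6 h and 24 h M1, whose barcodes were deeper. The shares that follow are at 500 UMIs. For S phase genes the share was 24.8% in 0 h M0, against 41.1 and 8.03% in 6 h and 24 h M0, 1.57 and 2.29% in 6 h and 24 h M1, and 26.3 and 13.9% in 6 h and 24 h M2. The M1 shares are the nearest measure of background. MHC class II genes reached 2 UMIs in 2.06% of thinned 0 h M0 barcodes (1.7 to 2.47%), against 1.51 and 2.38% in 6 h and 24 h M0, 20.5 and 22.6% in 6 h and 24 h M1 and 4.8 and 20.7% in 6 h and 24 h M2. Interferon-stimulated genes did so in 6.43% of 0 h M0 barcodes, against 99.8 and 100% of 6 h and 24 h M1 barcodes. In 0 h M0 most UMIs of that list were of Bst2.

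Gene group levels also varied with barcode depth within the library. Barcodes above the median of 1025 UMIs had 835 CPM of MHC class II genes, against 271 CPM in those below it, 4010 CPM of glycolysis genes, against 2419 CPM, and 3309 CPM of chemokine genes, against 2075 CPM. The 3 marker genes went the other way, at 1008 CPM above and 1421 CPM below. Larger barcodes thus held relatively more glycolytic message and less of the 3 marker genes, and the part of cell size or capture in this was not tested.

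Rare barcodes carried genes of other marrow lineages. A barcode of 766 UMIs held 9 UMIs of S100a9, 8 of Camp, 7 of Ngp and 2 of Ltf, genes of neutrophil granules and cytosol. Further barcodes of 964, 2012 and 5415 UMIs held 5, 4 and 20 UMIs of Plac8, and the last 2 of them 5 and 2 UMIs of the monocyte antigen gene Ly6c2. With the megakaryocytic barcode, 5 of 5985 barcodes stood out in this way. At 500 UMIs, 2 or more UMIs of the neutrophil list were in 0.286% of 0 h M0 barcodes and of the monocyte list in 0.215%. Without thinning, 301 of the 485 UMIs of the neutrophil list were of Mmp8, seen in 231 barcodes, so the share of that list does not count neutrophils.

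In bulk RNA-seq, where the condition had 3 replicates, the 3 marker genes did not differ detectably between 0 h M0 and 24 h M0, unlike in the single-cell libraries. Sepp1 was at 1931, 2353 and 2266 FPKM (fragments scaled to transcript length and library size) in 0 h M0, against 2504, 2777 and 2611 FPKM in 24 h M0. The 0 h M0 replicates all lay below the 24 h M0 replicates, but the log2 difference of -0.27 had an adjusted p of 0.88 (limma over all 145 bulk libraries, Benjamini-Hochberg over 8307 genes, as for every adjusted p here). Gas6 was at 60.4, 72.4 and 82.8 FPKM in 0 h M0, against 71.2, 91.2 and 98.1 FPKM in 24 h M0, and the groups overlapped (-0.27, adjusted p 0.87). For both genes 0 h M0 was lower in 3 of 3 same-numbered replicates, and with the replicate number as a block the adjusted p was 0.60 for Sepp1 and 0.53 for Gas6. Stab1 was at 238, 305 and 318 FPKM in 0 h M0, against 245, 303 and 311 FPKM in 24 h M0, again overlapping (0.00, adjusted p 1.0). All 3 were higher in 0 h M0 than in 24 h M1, by log2 differences of 2.61 for Sepp1 (adjusted p 4.3e-07), 2.98 for Gas6 (4.7e-10) and 1.55 for Stab1 (4.1e-05), and than in 24 h M2, by 2.27 (3.3e-05), 2.11 (1.8e-05) and 2.16 (1.4e-07). In bulk RNA, fewer cells of a type and less RNA per cell cannot be told apart.

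Across all bulk genes, 136 of 8307 genes (1.64%) passed the test between 0 h M0 and 24 h M0, 84 of them higher in 0 h M0 (1.01%) and 52 lower (0.626%). With the replicate number as a block the count was 342 (167 higher and 175 lower), and in a fit on the 6 libraries of these 2 groups it was 21. Without 0 h M0 replicate 3 it was 69, without replicates 1 and 2 of 24 h M0 in turn 45 and 56, and without 0 h M0 replicate 1 it was 90. The S phase genes that lay apart between the single-cell libraries did not pass in bulk, where 0 of 34 were called: Pcna was at 169, 175 and 191 FPKM in 0 h M0, against 101, 144 and 176 FPKM in 24 h M0, and the groups overlapped (0.38, adjusted p 0.38), with 0 h M0 higher in 3 of 3 same-numbered replicates (adjusted p 0.13 with the block). Of 52 G2 and M phase genes 1 was called, lower in 0 h M0. At the shares over all genes, these counts do not set either list apart. The list medians were 0.05 for S phase and -0.47 for G2 and M phases on the log2 scale, against -0.02 over all genes. Top2a was at 52.0, 51.2 and 57.0 FPKM in 0 h M0, against 94.2, 75.5 and 76.2 FPKM in 24 h M0, without overlap but short of the threshold (-0.60, adjusted p 0.45). Of 18 immediate early genes 2 were higher in 0 h M0, with a list median of 0.74. For Egr1 the values were 13.7, 231 and 5.15 FPKM in 0 h M0, against 3.25, 5.73 and 7.49 FPKM in 24 h M0 (2.14, adjusted p 0.016), and for Ier2 17.8, 141 and 15.3 FPKM, against 12.3, 12.9 and 14.7 FPKM (1.30, adjusted p 0.03). Replicate 2 of 0 h M0 was far above the other 2 in both genes, and without it the differences were 0.61 for Egr1 (adjusted p 0.62) and 0.30 for Ier2 (0.75). The calls were also lost without replicate 1 or 2 of 24 h M0 (adjusted p 0.15 and 0.052 for Egr1, with differences of 1.87 or more, and 0.14 and 0.12 for Ier2). None of 20 chemokine and cytokine genes passed, a count that at those shares does not set them apart, and their median was 0.52. Ccl2 was at 94.7, 204 and 120 FPKM in 0 h M0, against 39.0, 85.9 and 76.1 FPKM in 24 h M0. Its groups did not overlap (1.05, adjusted p 0.12). Pf4 was lower in 0 h M0, at 312, 455 and 357 FPKM, against 851, 587 and 797 FPKM in 24 h M0 (-0.99, adjusted p 0.028). The groups did not overlap, but the call was lost in 4 of 6 fits without 1 replicate (without replicate 1 or 3 of either group, adjusted p 0.069 to 0.18, with differences of -0.87 to -0.96). In the fit on the 2 groups alone, Egr1, Ier2 and Pf4 did not pass (adjusted p 0.58, 0.59 and 0.16).

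Against the polarized bulk libraries, 5081 genes (61.2%) passed for 24 h M1, 25.2% of all genes higher in 0 h M0 and 35.9% lower, and 2694 (32.4%) for 24 h M2, 14.2% higher and 18.2% lower. All 31 interferon-stimulated genes were lower in 0 h M0 than in 24 h M1, with a median of -6.08 on the log2 scale against -0.10 over all genes, and 48 of 52 G2 and M phase genes were higher in 0 h M0, with a median of 2.70. Against 24 h M2, 23 of 25 IL-4 response genes were lower in 0 h M0 and 1 was higher (median -2.47, against -0.05 over all genes), and 19 of 20 cholesterol synthesis genes were lower. The MHC class II gene H2-Aa, carried in the 0 h M0 single-cell library mostly by 29 barcodes, was at 29.0, 44.3 and 51.9 FPKM in bulk 0 h M0, against a mean of 156 FPKM in 24 h M1 (-1.91, adjusted p 6.3e-06). Mmp12, the leading gene of cluster 4, was at 2159, 1610 and 1895 FPKM in bulk 0 h M0, against 1544, 1281 and 2161 FPKM in 24 h M0 (0.21, adjusted p 0.93).

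Some genes were high in bulk 0 h M0 and nearly absent from the single-cell library, among them granule genes of neutrophils and their precursors, a comparison added after seeing the data. Of 2145 named genes at 30 FPKM or more in bulk 0 h M0, 28 had fewer than 20 UMIs in the single-cell library, and 9 of the 28 were on the neutrophil list. Among the others, Rnasek was at a mean of 124 FPKM and Evi2b at 114 FPKM, both with 0 UMIs, and neither passed the test between 0 h M0 and 24 h M0 (adjusted p 0.78 and 0.86). As a yardstick, the 1693 genes between 30 and 100 FPKM had a median of 525 UMIs, and 1.89% of them had fewer than 20. Elane, neutrophil elastase, was at 45.4, 40.5 and 40.6 FPKM in bulk 0 h M0 and had 0 UMIs in 5985 barcodes, and Mpo, myeloperoxidase, was at 47.7, 35.4 and 40 FPKM and also had 0. Ngp was at 87.6, 261 and 259 FPKM with 7 UMIs, all in the single barcode described above, and S100a9 at 323, 1088 and 1145 FPKM with 15 UMIs in 6 barcodes. In bulk these genes were higher in 0 h M0 than in 24 h M0, which averaged 0.381 ± 0.334 FPKM for Elane (SD, n = 3; log2 difference 5.0, adjusted p 7.7e-41), 2.43 FPKM for Mpo (3.90, 6.5e-17), 9.81 FPKM for Ngp (4.50, 6.4e-05) and 102 FPKM for S100a9 (3.74, 0.048). Elane, Mpo and Ngp kept the call in all 6 fits without 1 replicate, while S100a9 lost it in 4, with an adjusted p of 0.49 and a difference of 2.30 without replicate 1 of 24 h M0, 0.052 without its replicate 2, and 0.12 and 0.19 without replicates 2 and 3 of 0 h M0, where the differences were 4.40, 3.46 and 3.42. In the fit on the 2 groups alone, Elane and Mpo passed (adjusted p 1.1e-04 and 0.039), and Ngp and S100a9 did not (0.094 and 0.34). Of 12 neutrophil genes measured in bulk, 10 were higher in 0 h M0 and none lower (median 3.77), and of 9 monocyte genes 7 were higher and none lower (2.37), among them Ly6c2 at 84.9, 36.8 and 47.1 FPKM in 0 h M0, against a mean of 1.43 FPKM in 24 h M0 (4.60, adjusted p 2.8e-15). Over all genes, 1.01% were higher in 0 h M0 and 0.626% lower, with a median of -0.02. Of 15 macrophage core genes none passed in either direction, a count that at those shares does not set them apart from all genes. Harvest and library chemistry differed between bulk and single-cell libraries. The sources do not say whether the bulk and single-cell cultures came from the same marrow preparation. The part of each of these in the difference was not tested.

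**Figure D5:**
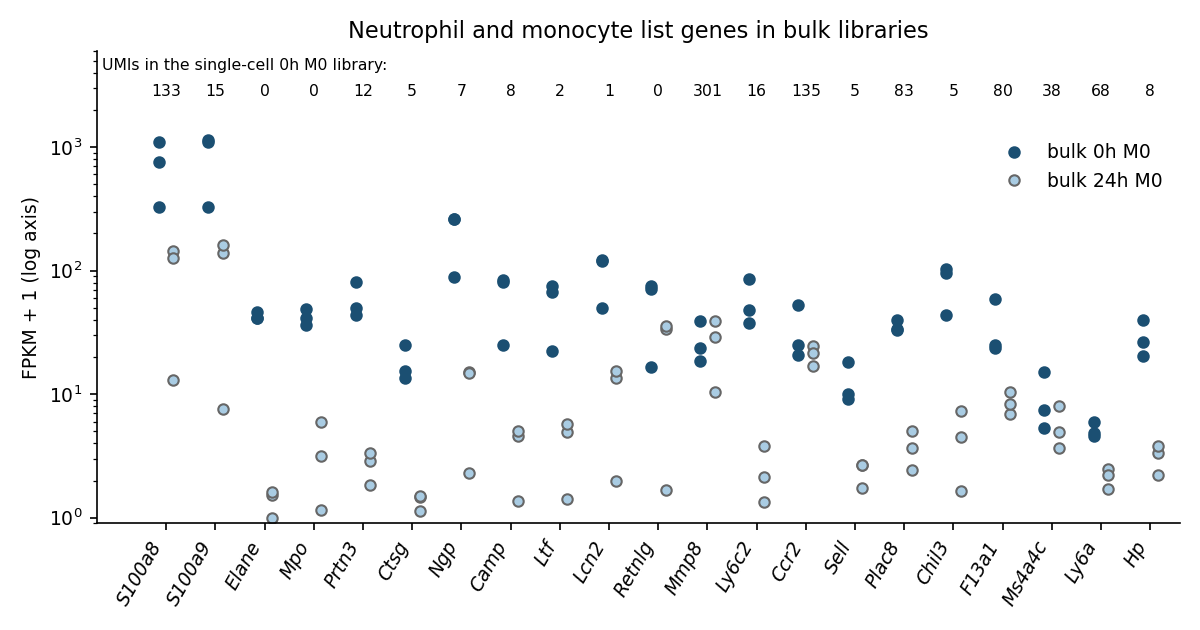
Bulk level (FPKM + 1, log axis) of genes of the neutrophil and monocyte lists (horizontal axis) in each replicate of 0 h M0 (dark points) and 24 h M0 (light points), with the UMIs of each gene in the single-cell 0 h M0 library written above it. Elane lay between 40.5 and 45.4 FPKM in 0 h M0, against a mean of 0.381 FPKM in 24 h M0, and had 0 UMIs in single cells.

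ATAC-seq gave an independent readout of the same condition. Promoter accessibility was taken as reads scaled to the total of the library (RPM) in merged peaks within 500 bases of a start site, in 3 replicates. Its relation to the single-cell level was steep at the low end and flat above: a promoter peak was found for 27.6% of 7819 genes with no UMI in 0 h M0, 77.6% of 1753 genes under 1 CPM, 96% of 3487 genes from 1 to 10 CPM, 99.5% of 5135 genes from 10 to 100 CPM and 99.5% of 1280 genes at 100 CPM or more. The median was 0, 8.38, 28.2, 35.5 and 34.6 RPM in these classes. The 3 marker genes all had a promoter peak and differed in its height. Peaks were called on all 9 ATAC libraries together, so a peak alone does not show accessibility in 0 h M0. Gas6 and Stab1 averaged 10.9 and 4.01 RPM in 0 h M0, under the 34.6 RPM median of genes at 100 CPM or more. Sepp1 had 40.7, 50.4 and 37.9 RPM in 0 h M0, against 31.8, 30.1 and 27.2 RPM in 24 h M1, without overlap. Gas6 had 12.5, 9.19 and 11.1 RPM, against 9.41, 13.8 and 12.1 RPM, and Stab1 3.96, 3.6 and 4.48 RPM, against 5.0, 4.29 and 8.09 RPM, both overlapping. With 3 libraries a group, a two-sided exact permutation test cannot go below p = 0.1, and the differences were not tested. Apoe at 25.7, 27.6 and 22.3 RPM in 0 h M0, against 10.9, 8.46 and 5.78 RPM in 24 h M1, and Pf4 at 28.3, 26.8 and 29.7 RPM, against 14.4, 16.0 and 9.25 RPM, did not overlap either.

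Promoter peaks of gene lists that were low in 0 h M0 or high in 24 h M1 are given beside the 96 to 99.5% of genes at 1 CPM or more that had one. All 8 MHC class II genes had a promoter peak, with a median of 8.06 RPM in 0 h M0 and 9.44 RPM in 24 h M1, although in single cells most of their message came from 29 barcodes. H2-Aa had 3.21, 4.0 and 4.07 RPM in 0 h M0, against 1.77, 5.18 and 3.47 RPM in 24 h M1. Interferon-stimulated genes had a promoter peak in 30 of 30 cases, with medians of 16 RPM in 0 h M0 and 35.7 RPM in 24 h M1, and M1 effectors in 12 of 15, with 5.88 and 14.6 RPM. Promoters of the neutrophil list had a peak in 8 of 14 cases, with medians of 3.45 RPM in 0 h M0 and 0.214 RPM in 24 h M1. S100a9 had 6.41, 8.19 and 8.01 RPM in 0 h M0, against 0, 0.126 and 0 RPM in 24 h M1, but Elane, Mpo and Prtn3 had no promoter peak in any library. None of 6 B cell genes with a start site had one.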

How the data were processed

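Single-cell RNA-seq (10X Genomics) was deposited by the authors as unnormalized UMI counts per gene and barcode, made with Cell Ranger on mm10. Cells had been washed, lifted with cold Versene and scraped. Bulk RNA-seq was deposited as log10(FPKM + 1), made by the authors with TopHat2 2.0.14 and Cuffnorm 2.2.2, for 8307 genes in 145 libraries of 48 conditions. The bulk table holds no read depth. ATAC-seq was deposited as read counts per library at 150203 merged peaks, which the authors called with MACS2 2.1.0 after removing duplicates with SAMtools 1.9 and counted with bedtools 2.28.0. Peak totals of the 0 h M0 libraries were 9354620, 5004005 and 7365338 reads. Over all 9 ATAC libraries they ran between 1730488 and 9354620 reads, so low RPM values in the shallowest rest on few reads. RPM values of the 72 h M1→M0 libraries are not reported here.

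UMIs were summed over all barcodes and scaled to CPM. Ratios carry exact conditional binomial intervals, and shares carry exact Clopper-Pearson intervals, both at 95%. A count of 0 was given the limit of 3 counts. Alpha was computed with each barcode's total in the expected count. Clusters came from Leiden at resolution 0.5 on 2000 variable genes, 30 principal components and 20 neighbours (scanpy 1.11.5). Bulk values were converted to log2(FPKM + 1), a pseudocount of 1 that understates the change of low genes, and tested two-sided with limma 3.58.1 (trend, 1 mean per condition, all libraries) at an adjusted p below 0.05, in place of the authors' Cuffdiff, which needs reads. The fit was tested on simulated data with known changes. RPM were computed from ATAC counts for 19474 genes of GENCODE vM21. No peak lay past the end of any of the 21 chromosomes of the reference, so builds were taken as equal. The alternatives were other pseudocounts and filters, a replicate block, a fit on 2 groups, leaving out each replicate, and other depth, UMI and clustering settings.

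The labels call bulk replicates biological without saying whether they were separate mice, so p-values measure only the spread between these samples. Same-numbered replicates deviated together for 24 h M0 and 24 h M2 (correlations with 0 h M0 of 0.322 to 0.585 and 0.403 to 0.540). For 24 h M1 the pairing was less clear, with same-numbered correlations of 0.134 to 0.493. There, replicate 3 of 0 h M0 correlated at 0.489 with replicate 2 and 0.134 with replicate 3. The numbers were taken to pair the samples and the blocked count is given. The cells, lists and rules were chosen with earlier results of these data known. Genes were named where they were marker or macrophage core genes, among the 20 most abundant or the 20 most variable, at the ends of the ratios to 6 h and 24 h M0 or to all libraries, or among the most abundant members of a list. Other members past the 2-fold limit, members of rare barcodes and genes high in bulk and low in single cells were named after their values were seen. Sepp1 was matched to the annotation as Selenop, and Chil3 to the bulk table under an older symbol. Itgam and 3 lymphocyte genes were not found among the gene rows and were not analysed here. Members of other lists were also missing from the single-cell rows. These held 30 of 31 interferon-stimulated, 25 of 27 IL-4 response and 14 of 16 phagocyte receptor genes.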

Additional observations from a re-analysis of the deposited data

How the results depend on the processing

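No called value changed sign under an alternative. Requiring 20 UMIs in place of 50 gave 418 called genes between 0 h M0 and 6 h M0 (208 as reported) and 971 between 0 h M0 and 24 h M0 (627). The count of genes with an alpha of 1 or more was 650 in barcodes of at least 1000 UMIs, 2880 with 100 UMIs required per gene and 55 with 1000 required (1338 as reported), so it follows the depth of genes and barcodes. Thinning to 1000 UMIs or not at all gave shares of 36.9 and 39.5% for G2 and M phase genes, 4.7 and 4.58% for MHC class II and 0.81 and 0.919% for the neutrophil list. Resolution 1.0 gave 8 clusters. Scaled to UMIs other than mitochondrial and ribosomal ones, 107 genes were higher and 102 lower against 6 h M0, and 346 and 274 against 24 h M0.

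In bulk, the 136 genes between 0 h M0 and 24 h M0 became 342 with the replicate block and 21 in a fit on the 6 libraries of these groups, and 45 to 177 when 1 replicate was left out. The counts against 24 h M1 (5081) and 24 h M2 (2694) were 4722 to 4845 and 1947 to 2533 without 1 replicate, and 5605 and 3440 with the block. Among values of single genes, leaving out 1 library moved 126 below and 31 above the threshold and left 3209 on their side, and the block moved 30 above it and 0 below. The cause of these shifts was not tested. Depth limits the single-cell library, with a median of 1025 UMIs per barcode, and spread was counted only for genes with 200 or more UMIs, a limit that was chosen.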

Other observations

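Metabolic and stress gene groups placed 0 h M0 between the other libraries. Iron and heme genes, mostly ferritin, summed to 74001 CPM in 0 h M0, against 50359 and 58461 CPM in 6 h and 24 h M0, 37851 and 82043 CPM in 6 h and 24 h M1 and 39105 and 42060 CPM in 6 h and 24 h M2, so that only 24 h M1 lay higher. In bulk, Fth1 was at 11561, 10339 and 13504 FPKM in 0 h M0, against 7423, 7704 and 10528 FPKM in 24 h M0, which overlapped (log2 difference 0.47, adjusted p 0.95, limma). Glycolysis genes summed to 3569 CPM in 0 h M0, against 3738 and 2868 CPM in 6 h and 24 h M0 and 4763 and 6862 CPM in 6 h and 24 h M1. Targets of NRF2, the transcription factor of the oxidative stress response, summed to 4523 CPM in 0 h M0, against 4965 and 3514 CPM in 6 h and 24 h M0 and 8298 and 15862 CPM in 6 h and 24 h M1. Hypoxia genes summed to 1593 CPM in 0 h M0, against 1666 and 838 CPM in 6 h and 24 h M0. Cholesterol synthesis genes summed to 656 CPM in 0 h M0, against 790 and 666 CPM in 6 h and 24 h M0, 858 and 277 CPM in 6 h and 24 h M1 and 909 and 1078 CPM in 6 h and 24 h M2.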
